A study of Mus musculus with 8 samples.

Results

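CatSper is the calcium channel of the sperm flagellum, and the transcripts of 10 of its subunits were followed across 8 testis libraries. The members were chosen by gene symbol: the pore-forming subunits Catsper1, Catsper2, Catsper3 and Catsper4, and the auxiliary subunits Catsperb, Catsperd, Catsperg1, Catsperg2, Catsperz and Efcab9. All 10 were found among the 57690 rows of the table, each symbol once, and all 10 were among the 20343 genes tested, those averaging 1 TPM or more. TPM is a level scaled to gene length and library total, which lets genes be compared within a library as far as the length used is right. Which transcript's length was used is not stated, and this limits each comparison of levels between genes, those of Efcab9 (754 bases in the table) and Catsperz (784 bases) included.

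The libraries were made from testes of male C57BL/6 mice aged 8 weeks. In the treated group 4 libraries came from mice given 2 intraperitoneal doses of 200 µg of an antibody against PD-L1, the ligand of the T cell receptor PD-1. In the control group 4 libraries came from mice given an IgG2b isotype antibody on the same schedule, and tissue was collected 7 days after treatment in both groups. Whether each library is a different mouse is not stated in the labels, and p-values therefore reflect only how these libraries scattered, possibly for technical reasons.

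The channel sits in the membrane of the principal piece of the sperm tail, where alkaline pH inside the cell opens it, and the calcium that enters drives the hyperactivated beat needed to reach and penetrate the egg. A single copy of each of the pore-forming proteins lines the pore. CATSPERB, CATSPERG, CATSPERD and CATSPERE carry large extracellular domains that form a canopy over it, while CATSPERZ and the EF-hand protein EFCAB9 bind each other on the inner side, where EFCAB9 senses calcium. Male mice that lack any of the pore subunits are infertile. The genes are transcribed in meiotic and postmeiotic germ cells, long before the channel works in sperm, so a testis library reads them in developing germ cells and not in mature sperm.

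Markers of the expected germ cells were present in the libraries. All 11 elongating spermatid markers, all 10 round spermatid markers and all 8 spermatocyte markers passed the filter, and the elongating markers alone summed to between 59522 and 78014 TPM. Of 7 epididymis markers, which would point to tissue beyond the testis, 1 passed the filter, Spink8, and 2 were listed at 0 in all libraries. Spink8 was at 12.2 TPM in anti-PD-L1 library 2 beside 1.65 to 2.96 TPM in the others, and the cause was not tested. Over all tested genes 2 libraries stood apart, IgG library 4 and anti-PD-L1 library 1: on the first principal component, which held 32.2% of the variance, they scored 0.54 and 0.67 while the other 6 lay between -0.26 and -0.14. Each belonged to a different group. IgG library 1 differed in another way: the 8 adipocyte markers summed to 250 TPM there and to 175 to 230 TPM in the others. Fabp4 was at 33.2 TPM there beside 0.51 to 9.26 TPM elsewhere, and Cfd at 24.6 beside 0 to 8.06 TPM. Plin1 and Lipe of the same list were not highest there. The part of adipose tissue in the subunit values was not tested. Among markers of other testis cells, the 6 Leydig cell markers summed to 1150 to 1493 TPM in IgG libraries and to 2068 to 3377 TPM in anti-PD-L1 libraries, and the part of Leydig cells in the subunit values was not tested. The higher sum was that of Insl3, a Leydig cell hormone gene, at 874 ± 106 TPM in controls and 2210 ± 656 TPM after treatment (SD, n = 4). Star, Cyp11a1, Cyp17a1 and Lhcgr had log2 differences below 0, and Hsd3b1 one of 0.21, none past an adjusted p of 0.05. No depth can be read from TPM, and the number of reads behind a value is unknown.

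CatSper subunit transcripts were abundant in both groups and did not differ detectably after anti-PD-L1. None of the 10 passed a Benjamini-Hochberg adjusted p of 0.05 in limma, where 0% of all tested genes passed, and the adjusted p was 0.999 for each. None reached an unadjusted p of 0.05, against 5.23% of all tested genes, and none had groups that did not overlap, against 2.99%. The log2 difference, treated minus control on the scale of log2(TPM + 1), was above 0 for 8 of the 10, against 58.3% of all tested genes. The differences ran from -0.05 for Catsperz to 0.10 for Catsper1, with a median of 0.05 beside 0.03 over all tested genes. Without IgG library 1 or without anti-PD-L1 library 1 the count above 0 was 6 of 10. The median moved to 0.02 without IgG library 1, to 0.12 without IgG library 4 and to 0.11 without both libraries that stood apart.

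**Figure D1:**
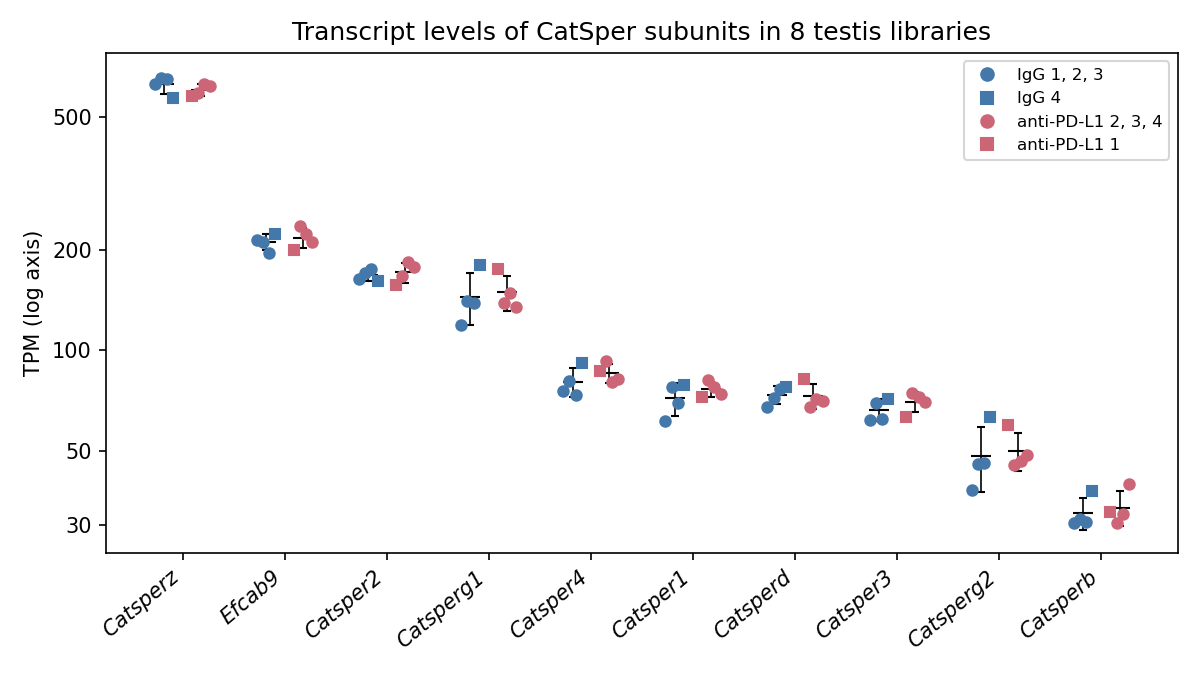
TPM of each subunit (log axis) in the 4 IgG libraries (blue) and the 4 anti-PD-L1 libraries (red), with the mean and SD of each group in black; squares mark IgG library 4 and anti-PD-L1 library 1. Levels range from 30.4 TPM for Catsperb to 658 TPM for Catsperz, and the groups overlap for each gene.

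The order of levels was led by the short cytoplasmic subunits. Catsperz had a mean of 617 TPM over the 8 libraries and Efcab9 of 214 TPM, followed by Catsper2 at 170 TPM and Catsperg1 at 147 TPM. Catsper4, Catsper1, Catsperd and Catsper3 lay close together at 83.0, 74.2, 73.2 and 68.2 TPM, and Catsperg2 and Catsperb closed the order at 49.1 and 33.1 TPM. Even the lowest, Catsperb, stood at the 76.5th percentile of tested genes by mean level, and Catsperz at the 99.0th. Of the 9 neighbouring pairs in this order 6 kept their order in all 8 libraries. Catsper2 was above Catsperg1 in 6 of 8, Catsper1 above Catsperd in 5 of 8 and Catsperd above Catsper3 in 6 of 8, and for these pairs the mean log2 ratio was smaller than its SD between libraries. Catsperz made up 40.4% ± 2.28 of the summed TPM of the 10 subunits (SD, n = 8).

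Catsper1 (mm10 chromosome 19, 5335741 to 5344280, plus strand) encodes the pore subunit with a histidine-rich N-terminus. It was at 61.2, 77.7, 69.5 and 78.9 TPM in IgG libraries 1 to 4 and at 72.7, 81.6, 77.9 and 73.8 TPM in anti-PD-L1 libraries 1 to 4. IgG library 1 was lowest, and the other 7 libraries were interleaved. The log2 difference was 0.10 (SE 0.09, 95% confidence interval -0.10 to 0.29), and 0.02 without IgG library 1. Catsper2 (chromosome 2, 121392631 to 121413792, minus strand) was the most abundant pore transcript, at 164, 171, 175 and 161 TPM in IgG libraries and 157, 167, 184 and 178 TPM in anti-PD-L1 libraries. Its lowest and its highest value both came from the treated group, and the log2 difference was 0.03 (SE 0.06, interval -0.10 to 0.16).

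Catsper3 (chromosome 13, 55784568 to 55808998, plus strand) was at 61.9, 69.6, 62.2 and 71.6 TPM in IgG libraries and at 63.4, 74.8, 72.4 and 69.8 TPM in anti-PD-L1 libraries. Catsper4 (chromosome 4, 134211970 to 134227383, minus strand) was at 75.6, 81.2, 73.6 and 91.5 TPM and at 86.7, 93.0, 80.1 and 82.3 TPM in the same order. Both encode pore subunits without which sperm have no CatSper current. For Catsper3 the log2 difference was 0.08 (SE 0.07, interval -0.09 to 0.25), with an unadjusted p of 0.307 in limma. Without both libraries that stood apart it was 0.16 with an unadjusted p of 0.0464 and an adjusted p of 0.501 (limma, Benjamini-Hochberg). For Catsper4 it was 0.09 (SE 0.08, interval -0.09 to 0.27). In both genes anti-PD-L1 library 2 was highest and an IgG library lowest, with the rest mixed.

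The pore transcripts were not present in equal amounts. Catsper2 made up 43.0% ± 2.31 of the summed pore TPM, Catsper4 21.01% ± 1.43, Catsper1 18.7% ± 0.927 and Catsper3 17.2% ± 0.531 (SD, n = 8 libraries). The sum of the 4 was 387 ± 18.7 TPM in IgG libraries and 404 ± 17.0 TPM after treatment (SD, n = 4). The 6 auxiliary subunits summed to 1138 ± 27.1 and 1129 ± 18.0 TPM (SD, n = 4). The auxiliary sum was thus between 2.66 and 3.03 times the pore sum in every library, with the lowest ratio in anti-PD-L1 library 2 and the highest in IgG library 1. This rested on Catsperz and Efcab9. Without them the auxiliary sum was below the pore sum in every library, at 0.676 to 0.920 times.

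Catsperz (chromosome 19, 6922371 to 6925380, minus strand) encodes the zeta subunit, which helps keep the channel in continuous stripes along the tail. It was at 629, 658, 652 and 573 TPM in IgG libraries and at 579, 592, 631 and 620 TPM in anti-PD-L1 libraries. IgG library 4 and anti-PD-L1 library 1 were the lowest, and the rest of the treated libraries reached into the range of the controls. The log2 difference was -0.05 (SE 0.05, interval -0.17 to 0.07). Efcab9 (chromosome 11, 32522751 to 32532081, minus strand), the gene of the calcium sensor, was at 215, 211, 196 and 224 TPM in IgG libraries and at 200.0, 236, 223 and 211 TPM in anti-PD-L1 libraries. Its log2 difference was 0.04 (SE 0.06, interval -0.10 to 0.18), and its highest value, in anti-PD-L1 library 2, lay 1.21-fold above its lowest. The difference was 0.0013 without that library and 0.0042 without IgG library 3, the lowest.

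Catsperb (chromosome 12, 101404653 to 101626009, plus strand) encodes the beta subunit of the extracellular canopy. It was at 30.4, 31.2, 30.7 and 37.8 TPM in IgG libraries and at 32.7, 30.4, 32.3 and 39.7 TPM in anti-PD-L1 libraries. In each group 1 library stood above the other 3, IgG library 4 and anti-PD-L1 library 4. The log2 difference was 0.05 (SE 0.10, interval -0.18 to 0.28). Catsperd (chromosome 17, 56628143 to 56664456, plus strand), the gene of the delta subunit, which the mature channel needs for its assembly, was at 67.8, 72.1, 76.5 and 77.7 TPM and at 81.9, 67.5, 71.6 and 70.6 TPM. Its difference of -0.01 (SE 0.07, interval -0.18 to 0.15) was the closest to 0 among the 10.

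The gamma subunit has a pair of genes in the mouse, Catsperg1 (chromosome 7, 29181321 to 29214035, minus strand) and Catsperg2 (chromosome 7, 29697219 to 29727032, minus strand). Catsperg1 was at 120, 141, 139 and 181 TPM in IgG libraries and at 175, 139, 149 and 135 TPM in anti-PD-L1 libraries. Catsperg2 was at 38.1, 45.7, 45.9 and 63.3 TPM and at 59.7, 45.2, 46.7 and 48.4 TPM. Both genes were lowest in IgG library 1 and highest in IgG library 4 and anti-PD-L1 library 1, with a highest value 1.51-fold and 1.66-fold above the lowest. These were the widest ranges of the 10 subunits, so their log2 differences, 0.05 (SE 0.13, interval -0.24 to 0.34) and 0.07 (SE 0.15, interval -0.27 to 0.41), were the least precise. Without IgG library 1 both were below 0, at -0.03 and -0.04, and without anti-PD-L1 library 1 both were again below 0, at -0.03 and -0.02.

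The gamma genes are near-identical copies, which bears on how far their values are separate. Over 3433 aligned bases the GENCODE M21 transcripts whose lengths match the table were 96.6% identical, with a longest run of 341 bases without a difference. Of the 50-base stretches of the Catsperg1 transcript 39.7% also occurred in Catsperg2, and sequence alone cannot assign a read of that length from these parts to 1 gene. How the authors' counting split such reads is not given in the sources used here, and the value of each gene is uncertain to that extent. A 60-base coding stretch with a typical number of differences, 2, is shown for both genes in the sense direction, chr7:29210801-29210860 and chr7:29725356-29725415 (minus strand, mm10, from the GENCODE transcripts), with the differing bases in capitals.
Catsperg1: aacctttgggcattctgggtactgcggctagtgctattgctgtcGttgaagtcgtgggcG
Catsperg2: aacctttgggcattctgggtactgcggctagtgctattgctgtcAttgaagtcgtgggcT

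**Figure D2:**
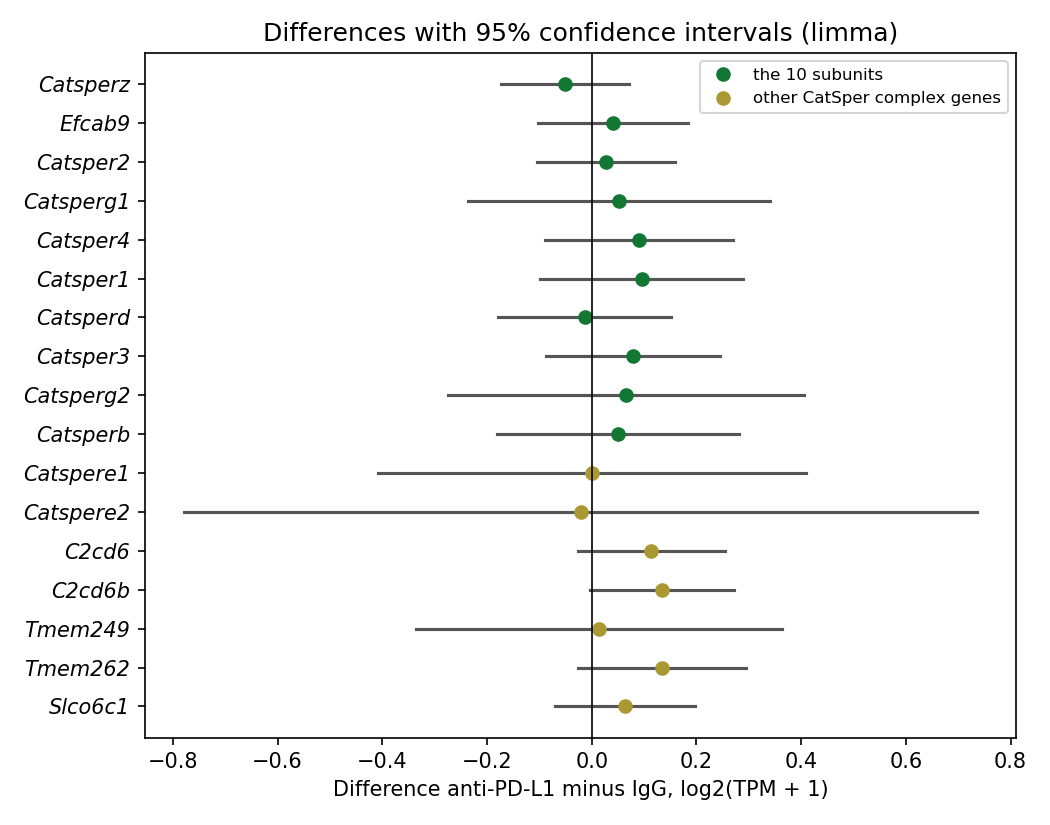
Difference between anti-PD-L1 and IgG libraries on the scale of log2(TPM + 1) for the 10 subunits (green) and 7 other genes of the complex (ochre), with 95% confidence intervals from limma. Each interval includes 0, and those of Catsperg1, Catsperg2, Catspere1, Catspere2 and Tmem249 are the widest.

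Subunit ratios were compared next, since a ratio within a library does not depend on the scaling of TPM. Of 12 ratios none passed: the smallest two-sided exact permutation p was 0.200, for Catsperz over Catsper1, and the adjusted p over the 12 ratios was 0.943 for each. The 70 assignments of the libraries allow no p below 0.0286. Catsperz over Catsper1 was 10.3, 8.47, 9.38 and 7.26 in IgG libraries and 7.97, 7.25, 8.09 and 8.39 in anti-PD-L1 libraries, means of 8.85 ± 1.29 and 7.93 ± 0.483 (SD, n = 4). IgG library 1 was highest, and the other 7 overlapped. Without IgG library 1 the log2 difference of this ratio moved from -0.15 to -0.07, with an exact permutation p of 0.400. Without IgG library 4 it was -0.24, with an exact permutation p of 0.0286 before and 0.343 after adjustment. Efcab9 over Catsperz, the ratio of the cytoplasmic partners, was 0.338 ± 0.0389 in IgG libraries and 0.360 ± 0.0261 in anti-PD-L1 libraries (SD, n = 4, exact permutation p = 0.343). Catsper3 over Catsper4 was 0.825 ± 0.0331 and 0.822 ± 0.0728 (SD, n = 4, exact permutation p = 0.886).

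Catsperg1 stayed close to 3.01 times Catsperg2. Their ratio was 3.14, 3.09, 3.02 and 2.85 in IgG libraries and 2.93, 3.07, 3.19 and 2.79 in anti-PD-L1 libraries, although the genes' own levels ranged over 1.51-fold and 1.66-fold. The copies are near-identical, and how the counting split their shared reads is not stated. The part of that split in the steady ratio was not tested. Against the pore the gamma genes were less steady. Catsperg1 over Catsper1 was 2.29 in IgG library 4 and 2.41 in anti-PD-L1 library 1, and lay between 1.70 and 2.00 in the other 6 libraries. Catsperg2 over Catsper1 was 0.803 and 0.821 in those libraries and lay between 0.554 and 0.660 in the other 6. The group means of Catsperg1 over Catsper1 were 2.01 ± 0.201 and 1.96 ± 0.310 (SD, n = 4, exact permutation p = 0.714).

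**Figure D3:**
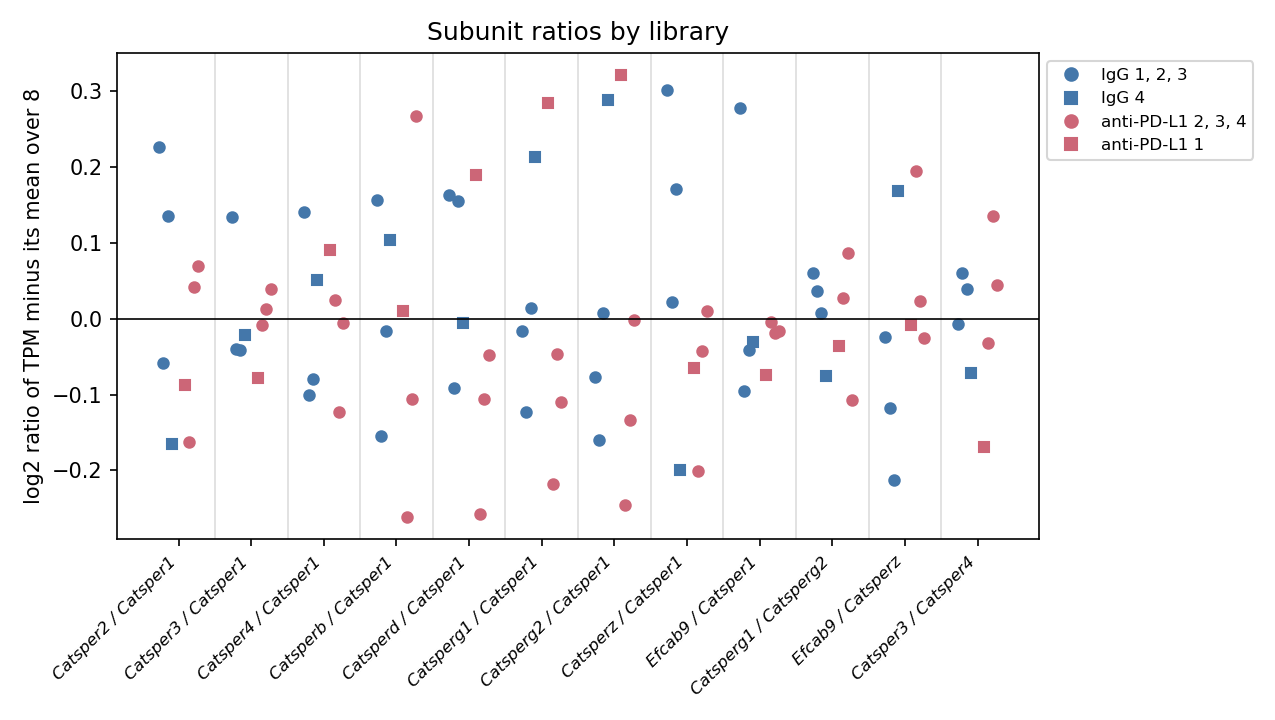
The 12 subunit ratios in each library, as log2 of the ratio of TPM minus its mean over the 8 libraries, with IgG libraries in blue, anti-PD-L1 libraries in red, and squares for IgG library 4 and anti-PD-L1 library 1. The squares lie on top for Catsperg1 and Catsperg2 over Catsper1, while Catsperg1 over Catsperg2 spans only 2.79 to 3.19.

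All 45 pairs of subunits were then ordered by the SD of their log2 ratio over the 8 libraries, as a description with no test. The most constant pair was Catsper2 with Catsperz, with an SD of 0.06 and a Catsper2 level between 0.260 and 0.292 times that of Catsperz. Catsper3 with Efcab9 (SD 0.06), Catsper1 with Catsper3 (SD 0.07) and Catsperg1 with Catsperg2 (SD 0.07) came next, the gamma pair with the limit of shared reads given above. Catsper1, Catsper3, Catsper4 and Efcab9 had SDs from 0.06 to 0.12 over their 6 pairs. Catsper2 with Catsper3 and Catsper2 with Efcab9, at 0.11 each, lay within that range. Catsper3 over Catsper4 was lowest in the libraries that stood apart, at 0.782 in IgG library 4 and 0.731 in anti-PD-L1 library 1, beside 0.804 to 0.903 elsewhere. The least constant pair was Catsperg2 with Catsperz, with an SD of 0.29, and the 11 least constant pairs each held a gamma gene. Catsperb kept no close ratio to any other subunit, with SDs from 0.16 to 0.20. The SD of a single gene's log2(TPM + 1) over the 8 libraries had a median of 0.18 over all tested genes and of 0.11 over the 10 subunits. That is another measure than the SD of a ratio, and ratio SDs for pairs of other genes were not computed. Catsper2 and Catsperz had the smallest single-gene SDs of the 10, 0.08 each, which limits how large their ratio SD can be. Catsperz with Efcab9, whose single-gene SD was 0.09, had a ratio SD of 0.14. The part of small single-gene SDs in the steady ratio of Catsper2 with Catsperz was not tested.

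**Figure D4:**
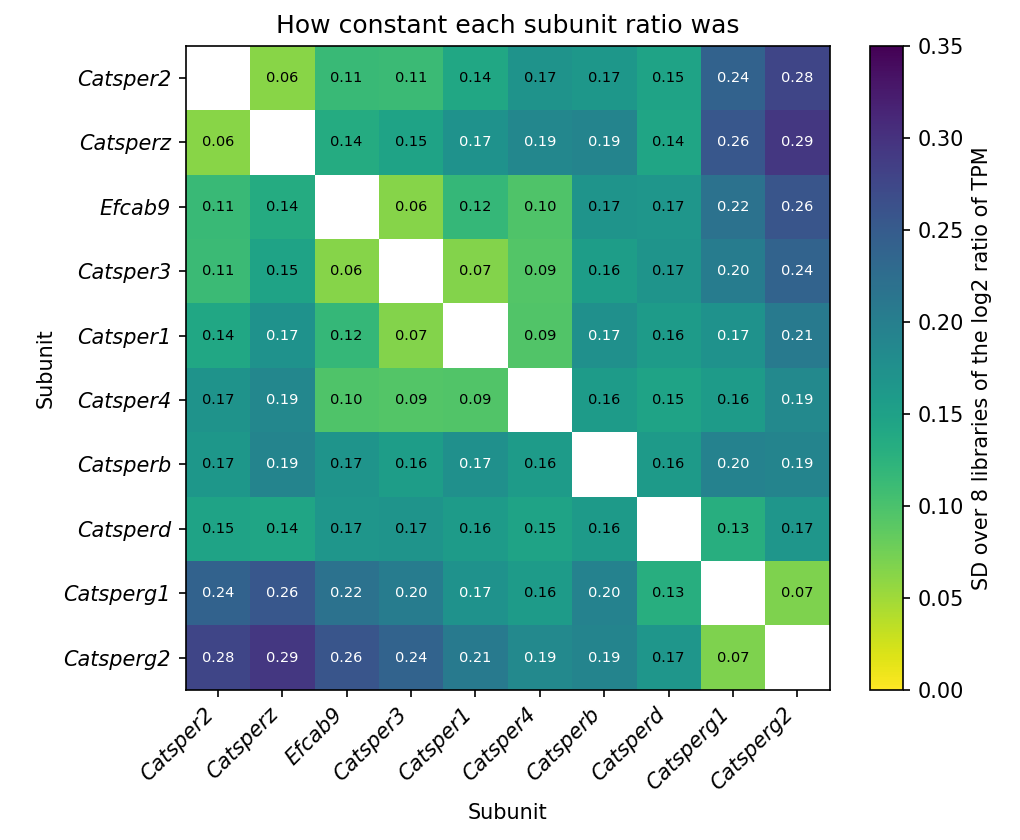
SD over the 8 libraries of the log2 ratio of TPM for each pair of subunits, from yellow (constant) to dark violet (variable). Low values mark Catsper2 with Catsperz, the block of Efcab9, Catsper3, Catsper1 and Catsper4, and the gamma pair, and the highest value, 0.29, is that of Catsperg2 with Catsperz.

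The subunits did not all move the same way in the libraries that stood apart. In IgG library 4 and anti-PD-L1 library 1 Catsperg1, Catsperg2 and Catsperd lay above all other libraries, 3 of 10 subunits beside 20.8% of all tested genes. That count is near the share over all genes, and it holds both of the near-identical gamma copies. Catsper2 and Catsperz lay below all others, 2 of 10 beside 3.18%. Since these libraries belonged to different groups, this pattern ran across the comparison and not along it. The same libraries had the highest levels of 3 nuclear noncoding RNAs, named after their values were seen: Malat1 was at 82.9 and 101 TPM beside 8.16 to 20.6 TPM in the other 6, Neat1 at 32.8 and 36.1 beside 7.72 to 10.8 TPM, and Meg3 at 15.5 and 10.9 beside 0.71 to 2.04 TPM. The summed elongating spermatid markers were at 62278 and 62610 TPM in these libraries and at 59522 to 78014 TPM in the others, and round spermatid markers at 2121 and 1997 beside 2039 to 2285 TPM. The part of nuclear RNA or of germ cell make-up in the subunit pattern was not tested.

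The same libraries were highest for 3 of 7 other genes of the CatSper complex, Catspere1, Catspere2 and Tmem249, beside 20.8% of all tested genes. Catspere1 and Catspere2 are closely alike copies, so they do not count as separate genes here. The list of other complex genes also holds C2cd6b and Catspere1, which the annotation does not give as protein-coding. Of its 7 genes 0 passed in limma over all genes. Of these 7, 0 had an unadjusted p under 0.05, against 5.23% of all tested genes. A log2 difference above 0 was found for 6, against 58.3%, with a median of 0.06 over the 7. Catspere1 and Catspere2, copies of the gene of the epsilon subunit, were at 16.8, 16.4, 17.6 and 23.5 TPM and at 9.87, 8.97, 9.75 and 19.3 TPM in IgG libraries. In anti-PD-L1 libraries they were at 26.4, 14.9, 16.5 and 17.4 TPM and at 22.3, 7.96, 9.78 and 8.90 TPM. IgG library 4 and anti-PD-L1 library 1 thus held the highest values of both genes, and group means were nearly equal, with log2 differences of 0.0007 and -0.02. Their transcripts were 93.8% identical over 2916 aligned bases, and the annotation lists Catspere1 as an unprocessed pseudogene, so their separate values are uncertain.

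Tmem249, the gene of a membrane protein of the complex, followed the epsilon genes, at 33.4 and 29.3 TPM in IgG library 4 and anti-PD-L1 library 1 and 20.2 to 25.1 TPM elsewhere. Tmem262, another small membrane protein of the complex, was at 67.2 ± 5.58 TPM in controls and 73.8 ± 4.51 TPM after treatment (SD, n = 4), with a log2 difference of 0.13. C2cd6, whose protein brings the channel to the tail, was at 186 ± 4.83 and 202 ± 16.1 TPM (SD, n = 4), a difference of 0.11. C2cd6b, listed by the annotation as a noncoding RNA gene, was at 144 ± 6.35 and 159 ± 11.3 TPM (SD, n = 4), a difference of 0.13 (interval -0.003 to 0.27) with an adjusted p of 0.968 in limma with Benjamini-Hochberg adjustment. Slco6c1, the gene of an organic anion transporter bound to the complex, was at 79.1 ± 3.45 and 82.7 ± 5.17 TPM (SD, n = 4). None of these genes had groups that did not overlap.

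**Figure D5:**
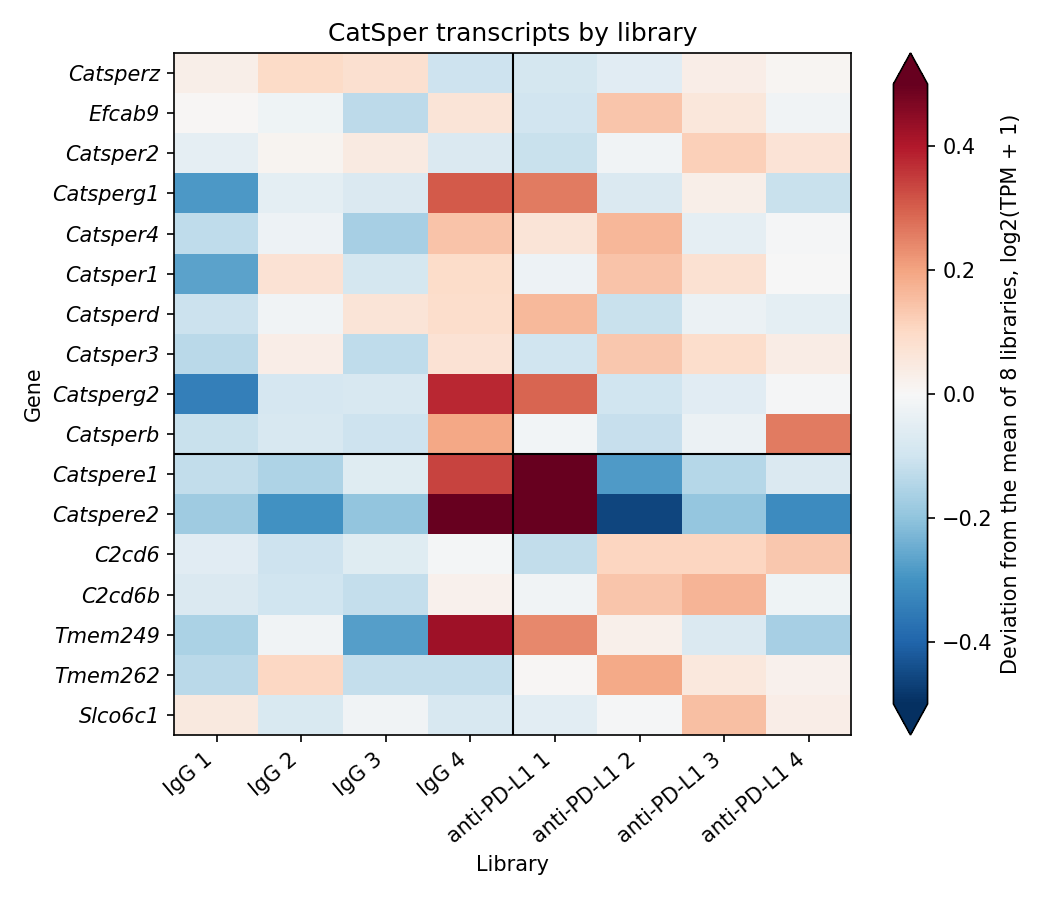
Deviation of each gene from its mean over the 8 libraries, on the scale of log2(TPM + 1), for the 10 subunits (upper rows) and 7 other genes of the complex (lower rows); colours end at 0.5 in either direction, which Catspere1 exceeds in anti-PD-L1 library 1 and Catspere2 in both dark red cells. The red cells of Catsperg1, Catsperg2, Catspere1, Catspere2 and Tmem249 fall in IgG library 4 and anti-PD-L1 library 1, neighbours in the plot that belong to different groups.

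Genes that act with CatSper in the control of sperm calcium and membrane potential were also described. Of 14 listed genes 12 passed the filter, and Hvcn1, a proton channel, and Slc9b2, a sodium-proton exchanger, did not, at means of 0.754 and 0.0775 TPM over the 8 libraries. Of the 12, 9 had a log2 difference above 0, against 58.3% of all tested genes, with a median difference of 0.04. In limma over all genes 0 of them passed and 0 had an unadjusted p under 0.05, against 5.23% of all tested genes for the latter. Slc9c1, the sperm sodium-proton exchanger, was at 50.3 ± 1.36 TPM in controls and 54.8 ± 2.86 TPM after treatment (SD, n = 4), a log2 difference of 0.12 (SE 0.05). Its groups did not overlap, 1 of 12 genes beside 2.99% of all tested genes, and its adjusted p was 0.968 in limma with Benjamini-Hochberg adjustment. Ppp3r2, the regulatory subunit of sperm calcineurin, differed by -0.08 (SE 0.05), and Lrrc52, the partner of the sperm potassium channel, by 0.10 (SE 0.09). Beside these values the elongating spermatid markers were lower in 11 of 11, with a median of -0.14, against 8483 of all 20343 tested genes. The round spermatid markers were higher in 7 of 10, against 58.3% of all tested genes, with a median of 0.10. None of either list passed an adjusted p of 0.05. In bulk RNA fewer cells of a type and less RNA per cell cannot be told apart.

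The mean of the 10 subunits, each centred on its own mean, followed few of them closely. Across the 8 libraries its correlation with single subunits ran from -0.62 for Catsperz and -0.12 for Catsper2 to 0.85 for Catsperg1 and 0.87 for Catsperg2, as a description. Each subunit is itself part of that mean, and the gamma genes, with the largest SDs, weigh most in it, so their high correlations are partly built in. Protein-coding genes outside the members were then ranked by their correlation with that mean, leaving out symbols of the Gm and Rik kind. The 3 most alike were Nr1d1, a circadian nuclear receptor (Pearson r = 0.98, Spearman rho = 0.88), Atxn2, an RNA-binding protein (0.98 and 0.98), and Ankzf1 (0.97 and 0.95), over the same 8 libraries. Among all tested genes 158 had a Pearson r above 0.9 with the mean.

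The subunit genes were spread over the genome. They lie on 8 chromosomes, with Catsper1 and Catsperz both on chromosome 19 and the gamma genes both on chromosome 7, and all 10 are annotated as protein-coding. The deposited annotation gives the ion transport domain to all 4 pore subunits and an EF-hand domain to Efcab9. Catsperg1 has 14 annotated transcripts, of which 7 are of the retained-intron class, Catsperg2 has 9 with 3, and Catsperz 9 with 4, whereas Catsper1, Catsper3, Catsper4, Catsperb and Efcab9 have none of that class. The table gives 1 value per gene, so the transcripts behind a level were not analysed here.

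Promoter sequence was found in the RefSeq table (GRCm38.p6) for 8 of the 10 subunits. Each promoter runs from 250 bases before to 50 bases after the gene's start. It was searched on both strands for TGACGTC and its shorter form TGACG, which CREM-type factors bind, GTTGCC and the wider GTTNCCA, letters of the RFX site, ACAATGG for SOX factors and AACTGCC for MYB factors. GTTNCCA was added after the sequences had been read, and it can overlap GTTGCC and AACTGCC. Of the 8 promoters 0 held TGACGTC, 1 held TGACG, 1 held GTTGCC, 4 held GTTNCCA, 0 held ACAATGG and 2 held AACTGCC. Over 32817 promoters of the same length the shares were 3.21%, 20.8%, 12.5%, 16.6%, 3.67% and 4.12%. A match describes letters in a window and shows no binding.

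The promoters of the most constant pair, Catsper2 and Catsperz, of the gamma gene Catsperg1 and of the calcium sensor gene Efcab9 are shown to let these members be compared, with all matches in capitals. They lie at chr2:121413743-121414042, chr19:6925331-6925630, chr7:29213984-29214283 and chr11:32527525-32527824, all on the minus strand, and are written in the direction of transcription. Catsper2 has a GC content of 74.7% and Catsperz of 55.3%, so the windows of the pair with the steadiest ratio were unlike. Catsperz held none of the motifs. The Catsper2 window also holds the start of Pdia3, a gene on the opposite strand that begins at 121413775 and had a mean of 206 TPM. The GC content and the matches of this window, counted above, thus belong to a region shared by both genes. In Catsperg1 a pair of GTTNCCA matches on opposite strands, starting 18 and 11 bases before the gene's start, adjoin each other. The RefSeq start of Efcab9 lies 4507 bases from the outer end of the gene in GENCODE. Its window gave the single GTTGCC match counted above, and the same letters make Efcab9 1 of the 4 promoters with GTTNCCA. Both counts thus rest in part on a window that may not be the promoter in use.
Catsper2: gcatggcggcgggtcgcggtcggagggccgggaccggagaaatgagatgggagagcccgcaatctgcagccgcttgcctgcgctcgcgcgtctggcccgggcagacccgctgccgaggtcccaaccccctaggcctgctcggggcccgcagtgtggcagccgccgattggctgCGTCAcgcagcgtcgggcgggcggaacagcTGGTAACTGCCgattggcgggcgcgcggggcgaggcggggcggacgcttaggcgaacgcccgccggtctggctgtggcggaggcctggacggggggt
Catsperz: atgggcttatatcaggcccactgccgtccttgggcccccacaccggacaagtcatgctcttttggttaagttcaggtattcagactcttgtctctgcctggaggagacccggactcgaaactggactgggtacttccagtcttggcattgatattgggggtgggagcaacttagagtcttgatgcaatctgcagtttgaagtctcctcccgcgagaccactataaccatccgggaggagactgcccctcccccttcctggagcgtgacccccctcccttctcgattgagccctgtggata
Catsperg1: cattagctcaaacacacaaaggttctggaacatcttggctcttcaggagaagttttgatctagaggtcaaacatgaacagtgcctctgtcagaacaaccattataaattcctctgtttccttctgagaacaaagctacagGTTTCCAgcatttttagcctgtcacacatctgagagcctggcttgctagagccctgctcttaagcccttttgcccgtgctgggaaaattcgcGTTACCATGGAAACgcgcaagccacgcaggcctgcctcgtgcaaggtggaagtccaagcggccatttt
Efcab9: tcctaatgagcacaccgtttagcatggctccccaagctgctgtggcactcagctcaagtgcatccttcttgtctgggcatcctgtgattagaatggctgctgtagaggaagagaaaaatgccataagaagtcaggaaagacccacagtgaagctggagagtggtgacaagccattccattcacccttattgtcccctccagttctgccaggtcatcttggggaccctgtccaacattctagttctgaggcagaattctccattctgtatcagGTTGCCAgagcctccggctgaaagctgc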

How the data were processed

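Total RNA of testis was extracted with TRIzol, treated with DNase and made into Illumina TruSeq libraries, per the labels' protocols. The authors' deposited table gives TPM per gene for 8 libraries, with group means and a gene length. Tools listed in the submitters' processing notes are CASAVA 1.8, HISAT2, StringTie and RSEM, with the build mm10 and without their roles. The sources used here do not give the annotation release, strand setting or read counts. Groups came from sample titles. At most 2.48% of values above 0 were equal in any pair of libraries, so none was a copy.

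From the TPM, log2(TPM + 1) of genes averaging 1 TPM or more was fitted with limma 3.58.1 (R 4.3.3, intensity trend, no covariates), tested on simulated data first, with Benjamini-Hochberg adjustment over 20343 genes. Each ratio was tested by exact permutation, two-sided, over the 70 assignments. Coordinates came from GENCODE M21, which held 99.8% of the table's Ensembl identifiers, and alignments were made with Biopython 1.88 in Python 3.11.15.

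Members, lists and alternatives were chosen with earlier results of these data known. Named were the 10 subunits, 7 other complex genes, the 3 sperm ion and calcium genes with the smallest p, and the 3 genes most like the subunits' mean. The last 3 were taken from protein-coding genes outside the members, without symbols of the Gm and Rik kind. Marker lists of Leydig, Sertoli, spermatogonial, adipose and macrophage cells had medians of -0.05, 0.03, 0.08, -0.49 and 0.12. The alternatives were other pseudocounts, filters, scalings, weights and trend, a replicate block, and left-out libraries.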

Additional observations from a re-analysis of the deposited data

Results flagged for a closer look

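Within groups of 4 libraries, 8 values lay far from the others by Dixon's criterion, among 58 groups of subunit levels, other complex genes and ratios that were examined, and chance alone marks about 1 group in 20. The groups share libraries and are not independent. In IgG library 4 Catsperb was at 37.8 TPM, Catspere1 at 23.5 TPM and Catspere2 at 19.3 TPM, each above the other IgG libraries. In anti-PD-L1 library 1 Catspere2 was at 22.3 TPM, above the other treated libraries, and C2cd6 was at 178 TPM, below them. Tmem262 was at 75.6 TPM in IgG library 2, above the other IgG libraries. In IgG library 1 the ratio of Catsper3 over Catsper1 was 1.01 and that of Efcab9 over Catsper1 was 3.51, both above the other IgG libraries, and Catsper1 itself was lowest there at 61.2 TPM.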

How the results depend on the processing

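None of the 10 subunits passed an adjusted p of 0.05 in limma under any of 17 alternatives. Among 170 recomputed differences 1 had an unadjusted p under 0.05, that of Catsper3 without both libraries that stood apart. The count of subunits above 0 stayed at 8 under other pseudocounts, filters, scalings, weights and trend and ranged from 6 to 9 with 1 library left out. Median-ratio scaling moved the subunits' median from 0.05 to 0.02. Over all genes the count past the threshold was 1 with a pseudocount of 0.1, 5 with array quality weights, 9 without both libraries that stood apart, and 0 to 16 with 1 library left out, and the cause was not tested. With 1 library left out, differences crossed 0 for Catsperg1 (-0.035 to 0.16), Catsperg2 (-0.037 to 0.20), Catsperd (-0.070 to 0.022), Catsper2 (-0.0072 to 0.069) and Catsperb (-0.027 to 0.12, and 0.14 without both). Those that kept their sign ranged from 0.022 to 0.14 for Catsper1, 0.047 to 0.13 for Catsper3, 0.049 to 0.15 for Catsper4, 0.0013 to 0.080 for Efcab9 and -0.095 to -0.028 for Catsperz.

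The ratio tests had little room to pass: the replicate block allows no p below 0.125, leaving out both libraries that stood apart none below 0.1, and a single ratio at the smallest exact p of 0.0286 had an adjusted p of 0.343. With 1 library left out the log2 differences of ratios crossed 0 for Catsper3 over Catsper1 (-0.033 to 0.026), Catsper4 over Catsper1 (-0.041 to 0.040), Catsperb over Catsper1 (-0.14 to 0.035), Catsperg1 over Catsper1 (-0.15 to 0.021), Catsperg2 over Catsper1 (-0.14 to 0.062), Efcab9 over Catsper1 (-0.10 to 0.027), Catsperg1 over Catsperg2 (-0.046 to 0.019) and Catsper3 over Catsper4 (-0.057 to 0.045). The last was 0.02 without both libraries that stood apart. Same-numbered libraries did not deviate together, with correlations of -0.11, 0.10, 0.09 and -0.20, so the numbers were not taken to pair them. With the replicate block 0 genes passed in limma and the subunits' median was 0.05, and 1 of 4 IgG libraries correlated best with its own number. Unknown depth limits what can be said of the lower genes.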

Other observations

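Annotated genes overlap 4 of the subunit genes. Pdia3, a protein disulphide isomerase gene on the opposite strand, overlaps the first 18 bases of Catsper2 on chromosome 2, and was at 197 ± 7.13 TPM in controls and 215 ± 12.1 TPM after treatment (SD, n = 4). Kcnk4, a potassium channel gene on the same strand, shares 1415 bases of its span with Catsperz and had a mean of 0.51 TPM over the 8 libraries. The remaining overlaps are short noncoding genes and pseudogenes: Gm14001 and Gm14000 in Catsper2, with means of 2.95 and 0.548 TPM, and Gm24542 in Catsperb and Gm17113 in Catsperg1, both listed at 0 in all 8 libraries. How reads of shared parts were assigned is not stated. The strand setting is not stated either, and Kcnk4 and Catsperz lie on the same strand.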
